A study of Mus musculus with 8 samples.

Results

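The genes described are 10 transcripts of the NF-κB pathway in B16F10 mouse melanoma cells, chosen by name from the deposited count table. They comprise the 5 subunit genes Nfkb1, Nfkb2, Rel, Rela and Relb, the inhibitor genes Nfkbia and Nfkbie, and the target genes Tnfaip3, Birc2 and Birc3. They are 10 of 45556 named genes in the table, and all 10 passed the filter on low counts that left 13500 genes for testing. The bulk RNA sequencing covered 8 libraries in 4 groups of 2. The groups were shDRG2 cells cultured for 24 hours with 5 ng/ml interferon-gamma (IFN-γ), pLKO cells cultured likewise, shDRG2 cells without IFN-γ, and pLKO cells without IFN-γ. shDRG2 cells carry a hairpin against Drg2, a developmentally regulated GTP-binding protein, and pLKO is the hairpin vector of the control line. Each line was represented once and 1 hairpin name is given, so shDRG2 and pLKO cells differ by line as well as by Drg2, which cannot be told apart. The labels do not say whether replicates were separate cultures, and the p-values measure only the spread between these libraries.

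NF-κB is a family of dimeric transcription factors. In resting cells most dimers are held in the cytoplasm by IκB proteins, until the IκB kinase complex marks the inhibitor for destruction and the dimer moves into the nucleus. In the canonical branch the usual dimer is RelA with p50. In the non-canonical branch the kinase NIK leads to processing of p100 to p52, which pairs with RelB. NF-κB switches on several of its own inhibitors, among them IκBα, IκBε and the ubiquitin-editing enzyme A20, so their transcripts are widely read as a record of recent activity. The inhibitors of apoptosis cIAP1 and cIAP2, the products of Birc2 and Birc3, are ubiquitin ligases that help TNF receptors to start the canonical branch and that keep NIK low in resting cells. IFN-γ signals mainly through JAK kinases. Its target promoters carry gamma-activated sequences (GAS), and it induces IRF1, which binds interferon-stimulated response elements (ISRE).

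Library totals ran from 25422758 to 36654519 counts. Drg2, the gene the hairpin targets, was at 6.46 and 7.66 CPM in shDRG2 cells with IFN-γ against 72.3 and 64.3 CPM in pLKO cells with IFN-γ, and at 8.68 and 9.34 CPM in shDRG2 cells against 76.3 and 68.6 CPM in pLKO cells without it. CPM is counts divided by the TMM-adjusted library size and scaled as usual for CPM. As a check of the IFN-γ response, Irf1, Cd274, Gbp2 and Socs1 rose in both lines, with log2 fold changes from 4.89 (Cd274) to 9.75 (Gbp2) in shDRG2 cells and from 4.69 (Cd274) to 10.05 (Gbp2) in pLKO cells. The 7 melanocyte markers, all detected, summed to 9621 to 10120 CPM in shDRG2 cells with IFN-γ, 10960 to 11060 CPM in pLKO cells with IFN-γ, 13870 to 14940 CPM in shDRG2 cells and 12910 to 13030 CPM in pLKO cells. The 11 markers of immune, endothelial, stromal and epithelial cells summed to between 1.11 and 1.94 CPM, and 5 of them (Cd3e, Itgam, Adgre1, Cdh5 and Epcam) were at 0 counts in every library. In bulk RNA, fewer cells expressing a gene and less RNA per cell cannot be told apart.

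Levels of different genes were compared only per length, as CPM per kilobase of the merged annotated exons, a length that understates genes with long, rarely used exons. On that scale the 10 genes spanned more than 2 orders of magnitude, and Rela, the gene of the main activating subunit, stood first in every group. This lead of Rela over Nfkb1 rests on the lengths used, 3072 bases for Rela and 12061 for Nfkb1, the longest of the 10. Without division by length they averaged 62.2 and 62.6 CPM over the 8 libraries. In pLKO cells without IFN-γ Rela averaged 20.9 ± 1.82 CPM per kilobase (SD, n = 2), followed by Nfkbia at 7.61 ± 0.778, Nfkb2 at 6.13 ± 0.693, Nfkb1 at 5.13 ± 0.380, and Birc2 at 2.26 ± 0.319. Nfkbie at 1.55 ± 0.335 and Rel at 1.39 ± 0.0209 CPM per kilobase came next and did not differ beyond the range of their libraries. Relb at 0.657 ± 0.0503, Birc3 at 0.213 ± 0.0516 and Tnfaip3 at 0.111 ± 0.0200 CPM per kilobase were lowest. In shDRG2 cells without IFN-γ the order was the same, except that Rel and Nfkbie changed places within the range of their libraries.

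The order after IFN-γ differed in a few places. Nfkb1 stood above Nfkb2 in both lines, at 5.45 ± 0.0738 against 4.89 ± 0.174 CPM per kilobase in shDRG2 cells and at 5.21 ± 0.687 against 4.76 ± 0.119 in pLKO cells, where their libraries overlapped. Birc2 came up to the level of Nfkb2 in shDRG2 cells, at 4.57 ± 0.366 CPM per kilobase with overlapping libraries, and stood just below it in pLKO cells, at 4.32 ± 0.485. Birc3, at 0.615 ± 0.0418 CPM per kilobase in shDRG2 cells and 0.432 ± 0.119 in pLKO cells, came level with Relb, at 0.547 ± 0.0760 and 0.448 ± 0.0535, with overlapping libraries in both lines. Of the summed per-length level of the 5 subunit genes, Rela held 61.9% ± 2.28 in shDRG2 cells with IFN-γ, 62.0% ± 1.72 in pLKO cells with IFN-γ, 61.6% ± 0.342 in shDRG2 cells and 61.0% ± 2.69 in pLKO cells. Relb held between 1.501% and 2.34% on average in the 4 groups. The Rela share thus moved by less than 1 percentage point between group means, within the spread of the replicates. The size of that share and the place of Nfkb1 in the order depend on the merged exon lengths.

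**Figure D1:**
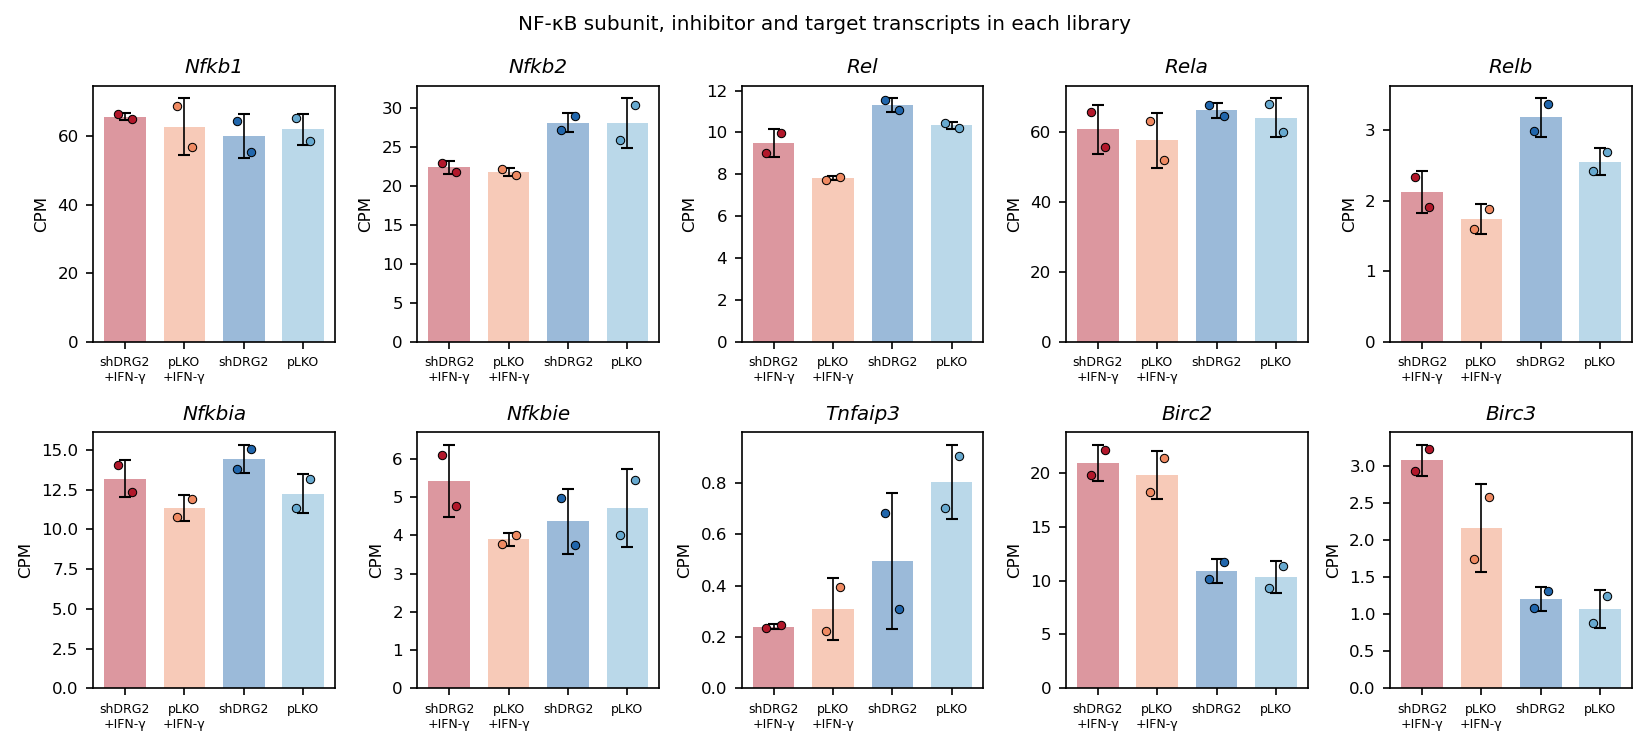
CPM of each of the 10 genes in the 8 libraries, in shDRG2 and pLKO cells with IFN-γ and then without it. Points are libraries, bars are means of 2 libraries starting at 0, and error bars are SD. Birc2 stood at 18.2 to 22.1 CPM in the 4 libraries with IFN-γ and at 9.32 to 11.7 CPM in the 4 without it.

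The members differ in the sequence before their start sites. RefSeq promoter sequences (build GRCm38.p6) matched 8 of the 10 genes, with 12 start sites in all. The 250 bases before each start were searched on both strands for the 10-base NF-κB consensus, for GAS (TTCNNNGAA) and for the ISRE core, which is GAAA, any 2 bases and GAAA again. The NF-κB consensus occurred in at least 1 window of 5 of the 8 genes, Nfkb2, Rel, Nfkbia, Nfkbie and Tnfaip3, and in 7 of the 12 windows, against 3.9% of 32851 promoter windows of all genes. GAS occurred before 1 start site of Nfkb2, against 7.02% of all windows, and the ISRE core in none of the 12, against 2.98% of all windows. No match says only that those letters are not in these 250 bases. Near matches were not searched in any window. The Birc3 window, for example, holds aaaagtgaaa, which departs from the ISRE core only in its first base. Several Nfkb2 and Rel matches overlap each other, because the site reads as a match on both strands. Windows of 5 genes are printed from 5′ to 3′ along the transcript, up to the 5′ boundary of the gene in GENCODE M21. They set the promoters of Rel and of the IκB genes beside those of Birc2 and Birc3. For Birc2 only 1 window is printed, since its other window lies inside the annotated gene. Capitals mark NF-κB consensus matches, and the Birc2 and Birc3 windows have none. The Rela window and the first Tnfaip3 window, which are not printed, have none either.
Rel, chr11:23770971-23771219, minus strand: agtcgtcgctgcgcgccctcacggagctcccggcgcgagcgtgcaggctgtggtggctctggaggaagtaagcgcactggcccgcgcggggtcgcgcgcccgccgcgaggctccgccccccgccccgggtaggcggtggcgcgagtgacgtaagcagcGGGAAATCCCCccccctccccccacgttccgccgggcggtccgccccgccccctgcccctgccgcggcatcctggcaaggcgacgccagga
Nfkbia, chr12:55492648-55492897, minus strand: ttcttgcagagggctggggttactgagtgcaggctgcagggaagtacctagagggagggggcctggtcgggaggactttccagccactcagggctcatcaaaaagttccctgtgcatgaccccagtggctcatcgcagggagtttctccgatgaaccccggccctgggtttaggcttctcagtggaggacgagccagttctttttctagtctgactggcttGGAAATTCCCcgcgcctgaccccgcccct
Nfkbie, chr17:45555450-45555699, plus strand: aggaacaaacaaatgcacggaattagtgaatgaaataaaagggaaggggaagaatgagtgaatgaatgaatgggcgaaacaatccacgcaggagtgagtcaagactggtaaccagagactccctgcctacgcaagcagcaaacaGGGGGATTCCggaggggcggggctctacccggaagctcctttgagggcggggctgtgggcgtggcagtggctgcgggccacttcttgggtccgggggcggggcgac
Birc2, chr9:7837065-7837307, minus strand: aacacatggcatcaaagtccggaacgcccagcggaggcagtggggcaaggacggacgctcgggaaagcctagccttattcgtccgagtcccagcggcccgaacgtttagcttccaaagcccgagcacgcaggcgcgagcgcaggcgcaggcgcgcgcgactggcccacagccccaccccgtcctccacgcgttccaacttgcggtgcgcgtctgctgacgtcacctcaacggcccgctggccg
Birc3, chr9:7873187-7873420, minus strand: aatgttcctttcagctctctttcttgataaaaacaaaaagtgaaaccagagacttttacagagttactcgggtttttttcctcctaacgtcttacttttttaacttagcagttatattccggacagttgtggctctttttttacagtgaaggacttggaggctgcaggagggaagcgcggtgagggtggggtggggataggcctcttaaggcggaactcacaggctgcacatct
For Nfkb2 and Tnfaip3 the windows lie wholly or, for the Tnfaip3 window with matches, nearly wholly inside the span that GENCODE M21 gives the gene, so only the matches of all their windows are shown, with up to 5 flanking bases on each side. Capitals mark the GAS match in the first Nfkb2 line and NF-κB consensus matches in the other lines.
Nfkb2 site, chr19:46304584-46304602, plus strand: gagccTTCCCCGAAagggg
Nfkb2 site, chr19:46304693-46304713, plus strand: gtcacGGGAATTCCCCccctc
Nfkb2 site, chr19:46304721-46304736, plus strand: cgaaaGGGGCTTTCCc
Nfkb2 site, chr19:46305454-46305473, plus strand: cggcaGGAATGTCCCcacaa
Nfkb2 site, chr19:46305700-46305719, plus strand: ttttcGGGACTTTCCtaagc
Tnfaip3 site, chr10:19015521-19015540, minus strand: acgcgGGGACACCCCggggc
Tnfaip3 site, chr10:19015411-19015427, minus strand: ccatcGGAAATCCCCct

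**Figure D2:**
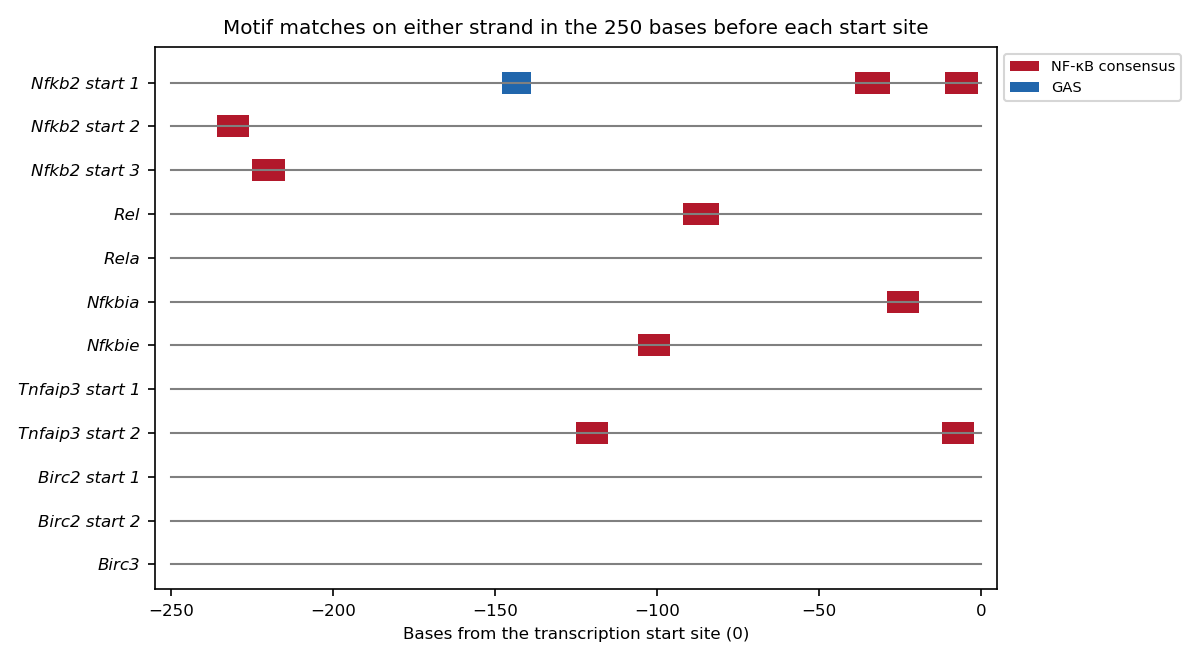
Positions of motif matches in the 250 bases before the 12 RefSeq start sites of 8 genes, in bases from the start site. Each grey line is 1 window, with NF-κB consensus matches in red and the GAS match in blue. The 3 windows of Birc2 and Birc3 hold neither, nor do the Rela window and the window of Tnfaip3 start 1.

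With IFN-γ a few of these transcripts rose or fell, and most were not called in either line. Birc2 and Birc3 rose to about double their unstimulated level, Nfkb2 and Rel fell to 0.777 and 0.757 times that level in pLKO cells, Nfkb2 also fell in shDRG2 cells, and Nfkb1, Rela, Nfkbia and Nfkbie showed no called change in either line. Counted with the edgeR quasi-likelihood test at an adjusted p under 0.05, 2 of the 10 genes rose and 1 fell in shDRG2 cells, and 2 rose and 2 fell in pLKO cells. Over all 13500 genes, 31.4% were called in shDRG2 cells (16.2% higher, 15.2% lower) and 28.1% in pLKO cells (15.4% higher, 12.7% lower), so the share of members called, 30% and 40%, lay near the background. With the replicate number as a block, Relb was also called in shDRG2 cells and Tnfaip3 in pLKO cells. That fit called 5634 and 5166 of the 13500 genes. In the main fit the median log2 fold change of the 10 genes was -0.13 in shDRG2 cells and -0.21 in pLKO cells. Over all genes tested it was 0.00 and 0.01. The libraries with and without IFN-γ did not overlap for 7 of the 10 genes in shDRG2 cells and 6 in pLKO cells, against 65.2% and 62.3% of all genes. In the same comparisons 6 of the 7 melanocyte markers fell in shDRG2 cells and 4 fell in pLKO cells, and their part in these results was not tested.

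Among the subunits, Nfkb2 fell in both lines. Nfkb2 (ENSMUSG00000025225.15, chromosome 19, 46304320 to 46312385, plus strand, GRCm38) encodes p100, the precursor of p52. It was at 23.0 and 21.8 CPM in shDRG2 cells with IFN-γ against 27.2 and 29.0 CPM in shDRG2 cells without it, and at 22.2 and 21.4 CPM in pLKO cells with IFN-γ against 25.9 and 30.3 CPM in pLKO cells without it. Every library with IFN-γ lay below every library without it. The log2 fold change was -0.33 (SE 0.0998, adjusted p = 0.0297) in shDRG2 cells and -0.36 (SE 0.0999, adjusted p = 0.0207) in pLKO cells. These calls rest on few libraries. In shDRG2 cells the adjusted p was 0.0804 without IFN-γ replicate 1, 0.150 without IFN-γ replicate 2, 0.0603 without the unstimulated replicate 1, 0.150 without the unstimulated replicate 2, and 0.0510 with DESeq2. In pLKO cells it was 0.0594 without IFN-γ replicate 1, 0.107 without IFN-γ replicate 2 and 0.180 without the unstimulated replicate 2. Exons of Psd and of AC114539.1 on the other strand cover 6.52% and 11.6% of the exon bases of Nfkb2, and since strandedness is not stated their reads could not be separated.

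Rel (ENSMUSG00000020275.9, chromosome 11, 23736847 to 23770970, minus strand), the gene of the c-Rel subunit best known from lymphocytes, fell in pLKO cells. It was at 9.03 and 9.98 CPM in shDRG2 cells with IFN-γ against 11.5 and 11.1 CPM in shDRG2 cells without it, and at 7.75 and 7.89 CPM in pLKO cells with IFN-γ against 10.45 and 10.2 CPM in pLKO cells without it. Libraries with and without IFN-γ did not overlap in either line. The log2 fold change was -0.40 in pLKO cells (SE 0.117, adjusted p = 0.0269) and -0.25 in shDRG2 cells (SE 0.115, adjusted p = 0.129). The pLKO call ended with DESeq2 (adjusted p = 0.0752), in a fit of the pLKO libraries alone (0.0515), and without any 1 of the pLKO libraries, at 0.110 and 0.0991 without IFN-γ replicate 1 and 2 and at 0.108 and 0.0907 without the unstimulated replicate 1 and 2.

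Relb (ENSMUSG00000002983.17, chromosome 7, 19606217 to 19629438, minus strand) encodes RelB, the partner of p52. It was at 2.33 and 1.92 CPM in shDRG2 cells with IFN-γ against 2.98 and 3.37 CPM in shDRG2 cells without it, and at 1.59 and 1.89 CPM in pLKO cells with IFN-γ against 2.41 and 2.69 CPM in pLKO cells without it. The 4 libraries with IFN-γ were lower than the 4 without it, but neither line passed the threshold, with log2 fold changes of -0.58 (SE 0.221, adjusted p = 0.0713) in shDRG2 cells and -0.55 (SE 0.228, adjusted p = 0.105) in pLKO cells. With the replicate number as a block, the value in shDRG2 cells was called (-0.58, adjusted p = 0.0381). The library counts of Relb lay between 43 and 96, which limits its precision.

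Rela (ENSMUSG00000024927.8, chromosome 19, 5637483 to 5648130, plus strand) and Nfkb1 (ENSMUSG00000028163.17, chromosome 3, 135584655 to 135691547, minus strand), the genes of RelA and of the p50 precursor, showed no called change. Rela was at 65.8 and 55.9 CPM in shDRG2 cells with IFN-γ against 67.8 and 64.8 CPM in shDRG2 cells without it, and at 63.3 and 52.1 CPM in pLKO cells with IFN-γ against 68.1 and 60.2 CPM in pLKO cells without it. Nfkb1 was at 66.3 and 65.1 CPM in shDRG2 cells with IFN-γ against 64.5 and 55.5 CPM in shDRG2 cells without it, and at 68.6 and 56.9 CPM in pLKO cells with IFN-γ against 65.2 and 58.7 CPM in pLKO cells without it. Rela overlapped between conditions in both lines, and Nfkb1 did so in pLKO cells. That overlap sets aside the replicate numbers. Between libraries of the same number and line, Rela was lower with IFN-γ in every pair. With the replicate number as a block in edgeR, Rela was not called in either line. Its average over both lines was called in that fit (-0.14, adjusted p = 0.0279). The 95% interval of the log2 fold change ran from -0.38 to 0.13 in shDRG2 cells and from -0.41 to 0.10 in pLKO cells for Rela, and from -0.11 to 0.37 in shDRG2 cells and from -0.22 to 0.26 in pLKO cells for Nfkb1.

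Of the inhibitors, neither IκB gene was called. Nfkbia (ENSMUSG00000021025.8, chromosome 12, 55489410 to 55492647, minus strand) encodes IκBα, the fast feedback inhibitor of RelA dimers. It was at 14.0 and 12.4 CPM in shDRG2 cells with IFN-γ against 13.8 and 15.1 CPM in shDRG2 cells without it, and at 10.8 and 11.9 CPM in pLKO cells with IFN-γ against 11.4 and 13.1 CPM in pLKO cells without it. The conditions overlapped in both lines, and the log2 fold change was -0.13 (95% interval -0.41 to 0.14, adjusted p = 0.471) in shDRG2 cells and -0.11 (95% interval -0.39 to 0.17, adjusted p = 0.577) in pLKO cells.

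Nfkbie (ENSMUSG00000023947.8, chromosome 17, 45555703 to 45563169, plus strand) encodes IκBε, a slower inhibitor. It was at 6.10 and 4.76 CPM in shDRG2 cells with IFN-γ against 4.98 and 3.76 CPM in shDRG2 cells without it, and at 3.78 and 4.02 CPM in pLKO cells with IFN-γ against 4.003 and 5.44 CPM in pLKO cells without it. Its log2 fold change was 0.30 (SE 0.216, adjusted p = 0.329) in shDRG2 cells and -0.27 (SE 0.220, adjusted p = 0.407) in pLKO cells, with overlapping conditions in both. The test of the difference between these responses gave 0.58 (SE 0.308, adjusted p = 1.00).

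Tnfaip3 (ENSMUSG00000019850.11, chromosome 10, 19000910 to 19015657, minus strand), the gene of A20, was the least abundant member and had few reads. It had 7 and 9 counts in shDRG2 cells with IFN-γ against 22 and 8 counts in shDRG2 cells without it, and 6 and 13 counts in pLKO cells with IFN-γ against 23 and 29 counts in pLKO cells without it. Its CPM was 0.233 and 0.246 in shDRG2 cells with IFN-γ against 0.684 and 0.310 in shDRG2 cells without it, and 0.223 and 0.396 in pLKO cells with IFN-γ against 0.703 and 0.907 in pLKO cells without it. Replicate 2 of the unstimulated shDRG2 cells stood near the stimulated libraries. The log2 fold change was -1.07 (SE 0.518, adjusted p = 0.148) in shDRG2 cells and -1.34 (SE 0.472, adjusted p = 0.0581) in pLKO cells. The pLKO value was called with the replicate block (adjusted p = 0.0418), without a filter on low counts (0.0329) and without the unstimulated shDRG2 replicate 2 (0.0497).

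The IAP genes gave the clearest response. Birc2 (ENSMUSG00000057367.12, chromosome 9, 7818227 to 7837064, minus strand) encodes cIAP1. It was at 19.8 and 22.1 CPM in shDRG2 cells with IFN-γ against 10.1 and 11.7 CPM in shDRG2 cells without it, and at 18.2 and 21.4 CPM in pLKO cells with IFN-γ against 9.32 and 11.4 CPM in pLKO cells without it. Each library with IFN-γ was above each library without it. Birc2 rose 1.92-fold in shDRG2 cells (log2 change of 0.94 with an SE of 0.138, adjusted p = 0.000484), and 1.91-fold in pLKO cells (log2 change of 0.94 with an SE of 0.138, adjusted p = 0.000596). Both calls held in all 15 alternatives run.

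Birc3 (ENSMUSG00000032000.17, chromosome 9, 7848699 to 7873186, minus strand), the neighbour of Birc2 on the same strand, encodes cIAP2. It was at 2.93 and 3.23 CPM in shDRG2 cells with IFN-γ against 1.09 and 1.32 CPM in shDRG2 cells without it, and at 1.74 and 2.59 CPM in pLKO cells with IFN-γ against 0.886 and 1.25 CPM in pLKO cells without it. Birc3 rose 2.57-fold in shDRG2 cells (log2 change of 1.36 with an SE of 0.286, adjusted p = 0.00460), and 2.04-fold in pLKO cells (log2 change of 1.03 with an SE of 0.293, adjusted p = 0.0249). The pLKO call ended without IFN-γ replicate 2 (adjusted p = 0.215), without the unstimulated replicate 1 (0.165) and in a fit of the pLKO libraries alone (0.0546), while the shDRG2 call held in all 15 alternatives. Of the 31-base words in Birc3 transcripts 11.3% occur in transcripts of other genes, 5.34% in Gm7019 alone, so a part of its reads could be shared.

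**Figure D3:**
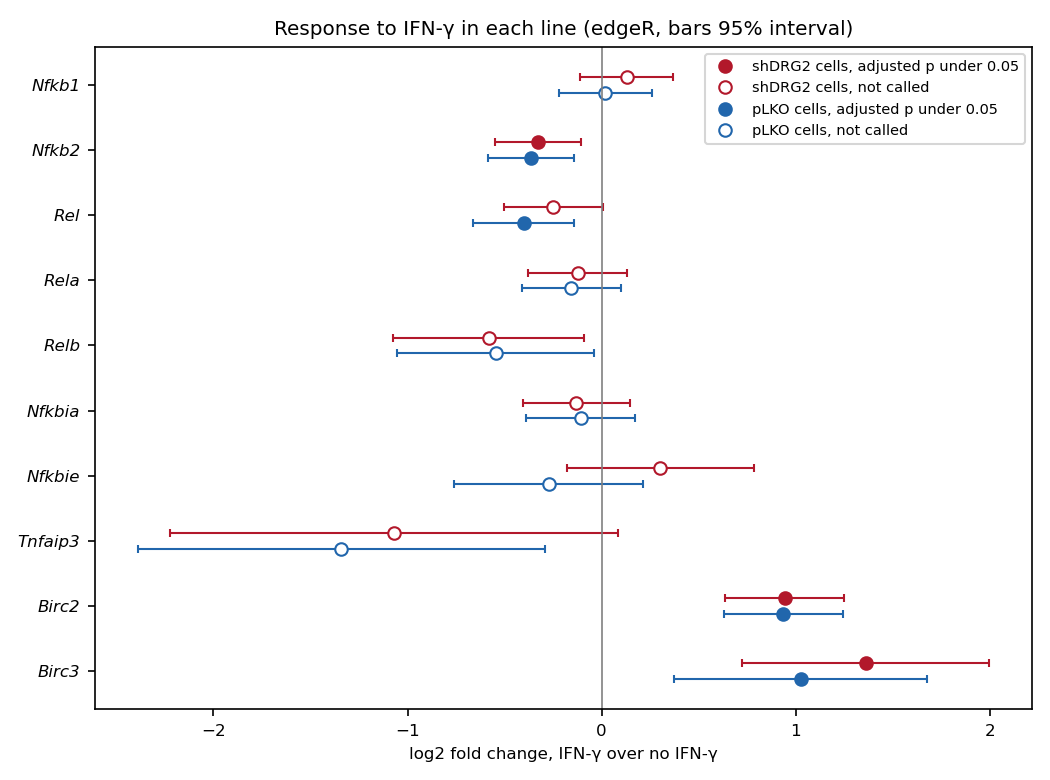
Log2 fold change of each of the 10 genes with IFN-γ over no IFN-γ, in shDRG2 cells (red, upper) and pLKO cells (blue, lower). Points are estimates of the edgeR fit with 95% intervals, filled where the adjusted p was under 0.05. Birc2 and Birc3 lie between 0.94 and 1.36, and Nfkb2 lies at -0.33 in shDRG2 cells and -0.36 in pLKO cells.

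Averaging the responses of both lines, a comparison added after these values were seen, 2 of the 10 genes rose and 4 fell, where 44.1% of all genes were called (22.5% higher, 21.6% lower). The 4 libraries with IFN-γ did not overlap the 4 without it for 5 of the 10 genes, against 38.6% of all genes. Birc2 (0.94, SE 0.0977, adjusted p = 2.54e-05) and Birc3 (1.19, SE 0.205, adjusted p = 0.000869) rose, and Nfkb2 (-0.35, SE 0.0706, adjusted p = 0.00258) and Rel (-0.33, SE 0.0820, adjusted p = 0.00841) fell, each in all 14 alternatives run. Relb (-0.56, SE 0.159, adjusted p = 0.0152) and Tnfaip3 (-1.21, SE 0.350, adjusted p = 0.0176) also fell in this average, Tnfaip3 with overlapping libraries. The Relb call ended without pLKO IFN-γ replicate 1 (adjusted p = 0.0572), pLKO replicate 2 (0.0534), shDRG2 IFN-γ replicate 2 (0.0604) or shDRG2 replicate 2 (0.0524). The Tnfaip3 call ended with DESeq2 (0.0662) and without pLKO IFN-γ replicate 1 (0.0603), pLKO replicate 2 (0.0622), shDRG2 IFN-γ replicate 1 (0.0572), shDRG2 IFN-γ replicate 2 (0.0556) or shDRG2 replicate 1 (0.126). Rela, at -0.14 with an adjusted p of 0.190, was called with the replicate block (adjusted p = 0.0279).

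The line with the hairpin against Drg2 was then set beside the vector line. None of the 10 genes was called between shDRG2 and pLKO cells, with or without IFN-γ, by edgeR or by DESeq2, where edgeR called 1.67% of all genes with IFN-γ and 1.2% without it. At an unadjusted p under 0.05 there was 1 member with IFN-γ, Rel, and 0 without it. Groups did not overlap for 5 of the 10 genes with IFN-γ and 4 without it, against 40.5% and 40.8% of all genes. The median log2 fold change of the 10 was 0.15 with IFN-γ and 0.06 without it, against 0.00 and 0.01 over all genes.

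For 4 members the line difference was bounded closely. Rela gave 0.08 (95% interval -0.18 to 0.33) with IFN-γ and 0.05 (-0.21 to 0.30) without it, and Nfkb1 gave 0.07 (-0.17 to 0.31) and -0.04 (-0.29 to 0.20). Nfkb2 gave 0.04 (-0.19 to 0.26) with IFN-γ and 0.00 (-0.22 to 0.22) without it. Birc2 gave 0.08 (-0.21 to 0.38) with IFN-γ and 0.07 (-0.24 to 0.39) without it. For these 4 genes no interval reached 0.40 in either direction, so a line difference beyond that size lies outside them, while smaller ones do not. The intervals of Rel reached 0.54 with IFN-γ and 0.38 without it, and those of Nfkbia 0.49 and 0.51.

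Nfkbia, Rel and Relb were higher in shDRG2 libraries within each treatment, without passing the threshold. Nfkbia was at 14.0 and 12.4 CPM in shDRG2 cells with IFN-γ against 10.8 and 11.9 CPM in pLKO cells with IFN-γ, and at 13.8 and 15.1 CPM in shDRG2 cells against 11.4 and 13.1 CPM in pLKO cells without it. For these genes shDRG2 and pLKO libraries did not overlap within either treatment. Of all genes, 40.5% did not overlap with IFN-γ and 40.8% without it. Averaged over treatments, the log2 difference between lines was 0.23 for Nfkbia (SE 0.0882, unadjusted p = 0.0286, adjusted p = 0.192) and 0.21 for Rel (SE 0.0819, unadjusted p = 0.0302, adjusted p = 0.197). These were the 2 members under an unadjusted p of 0.05 in that average, where 5.91% of all genes (1.98% higher, 3.93% lower) and none of the 10 were called by edgeR, and none of the 10 by DESeq2. Over both treatments together the 4 shDRG2 libraries overlapped the 4 pLKO libraries for all 10 genes, where 6.05% of all genes did not overlap.

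The scarcer members left wide intervals. Relb gave 0.28 (95% interval -0.24 to 0.79) with IFN-γ and 0.31 (-0.17 to 0.80) without it. Nfkbie gave 0.47 (-0.01 to 0.96) and -0.11 (-0.59 to 0.38), and Birc3 gave 0.50 (-0.10 to 1.10) and 0.16 (-0.53 to 0.86). Tnfaip3 gave -0.39 (-1.62 to 0.85) with IFN-γ and -0.66 (-1.64 to 0.32) without it. At this depth the Tnfaip3 intervals do not leave out a level more than 2-fold lower in shDRG2 cells.

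**Figure D4:**
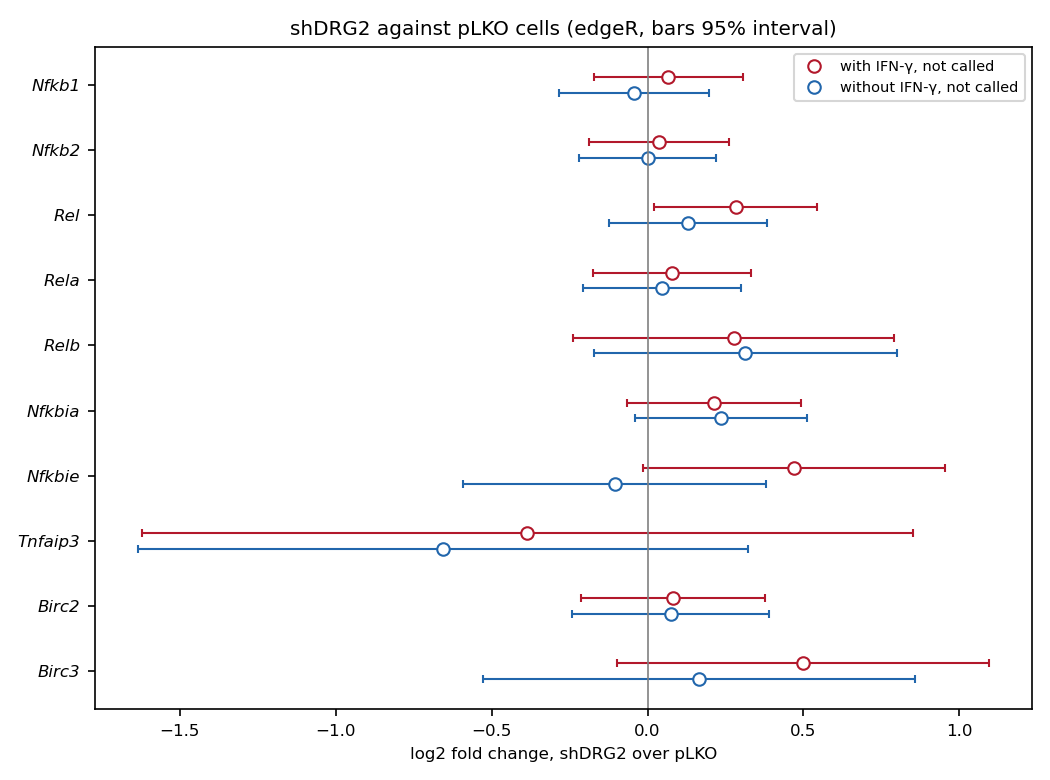
Log2 fold change of each of the 10 genes in shDRG2 over pLKO cells, with IFN-γ (red, upper) and without it (blue, lower), from the edgeR fit with 95% intervals. Open points mark values that were not called, which are all 20, and the Tnfaip3 intervals are the widest.

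The IFN-γ response of the 10 genes was not shown to differ between the lines. The difference between the responses, shDRG2 minus pLKO, was called for none of them by edgeR or DESeq2, with none under an unadjusted p of 0.05, where edgeR called 0.00741% of all genes. For Birc2 it was 0.01 (95% interval -0.43 to 0.44), for Nfkb2 0.04 (-0.28 to 0.35), for Rel 0.15 (-0.21 to 0.52) and for Birc3 0.34 (-0.58 to 1.25). A missed threshold does not show equal responses, and for Birc3 the interval spans from a weaker response in shDRG2 cells to one more than 2-fold larger. Birc2 exceeded Birc3 per length by 7.37 and 7.50 times in shDRG2 cells with IFN-γ, 11.4 and 9.02 times in pLKO cells with IFN-γ, 10.2 and 9.71 times in shDRG2 cells and 11.5 and 9.95 times in pLKO cells, a ratio chosen after the values were seen and not tested.

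Other genes of the pathway were read from lists drawn up by role, with earlier results of these data known. The shares called in these lists are therefore descriptive, and their distance from the share of all genes was not tested. Over all genes tested, 31.4% were called with IFN-γ in shDRG2 cells and 28.1% in pLKO cells. In the IκB kinase and linear ubiquitin group 8 of 9 tested genes rose and 0 fell with IFN-γ in each line, with a median log2 fold change of 0.45 in shDRG2 cells and 0.43 in pLKO cells. Rnf31, the gene of the linear ubiquitin ligase HOIP, rose 4.27-fold in shDRG2 cells (SE 0.1000 on the log2 scale, adjusted p = 1.00e-07) and 3.78-fold in pLKO cells (SE 0.0974, adjusted p = 1.76e-07). Sharpin, another subunit of that ligase, rose by 0.59 in shDRG2 cells and by 0.65 in pLKO cells on the log2 scale, and Tbk1, an IκB-kinase-like kinase, by 0.73 and 0.62. Ikbke, a close relative of Tbk1, rose by 0.65 in both lines. Chuk, the gene of the kinase subunit IKKα, was the member not called and is named after its values were seen, at 0.15 in shDRG2 cells and 0.02 in pLKO cells.

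In the group of receptors and adaptors 10 of 16 tested genes rose and 3 fell in each line. The share called was 81.2% in each, against 31.4% of all genes in shDRG2 cells and 28.1% in pLKO cells. The median log2 fold change was 0.42 in shDRG2 cells and 0.53 in pLKO cells. Tnfrsf1a, the gene of TNF receptor 1, rose 2.72-fold in shDRG2 cells (adjusted p = 1.30e-06) and 2.82-fold in pLKO cells (adjusted p = 1.09e-06). The double-stranded RNA receptor gene Tlr3 rose 4.26-fold in shDRG2 cells and 4.02-fold in pLKO cells, the adaptor gene Myd88 2.88-fold and 3.02-fold, and the kinase gene Irak2 2.99-fold and 2.89-fold. Tlr4, the endotoxin receptor gene, fell by 0.81 in shDRG2 cells and by 0.64 in pLKO cells on the log2 scale, Irak1 fell by 0.33 and 0.27, and the kinase gene Map3k7 fell by 0.28 and 0.26. The Irak1 call in pLKO cells ended without any 1 of the pLKO libraries, at adjusted p-values from 0.0525 to 0.0915, and the Map3k7 call in pLKO cells ended in a fit of the pLKO libraries alone (0.0719) and without any library other than pLKO replicate 2 or shDRG2 replicate 1, at 0.0550 to 0.278. In shDRG2 cells the Map3k7 call ended without IFN-γ replicate 1 (0.0885), IFN-γ replicate 2 (0.142) or the unstimulated replicate 1 (0.146).

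In the non-canonical branch 3 of 6 tested genes rose in each line, while 2 fell in shDRG2 cells and 1 fell in pLKO cells. The share called was 83.3% and 66.7%, against 31.4% and 28.1% of all genes. Map3k14, the gene of NIK, rose 1.85-fold in shDRG2 cells (adjusted p = 0.00411) and 1.58-fold in pLKO cells (adjusted p = 0.0201), a pLKO call that ended without IFN-γ replicate 2 (0.104) and without the unstimulated replicate 1 (0.151). Tnfrsf12a, the TWEAK receptor gene, rose 1.91-fold in shDRG2 cells and 1.80-fold in pLKO cells, and the lymphotoxin receptor gene Ltbr 1.31-fold and 1.23-fold. Traf3, whose product helps to destroy NIK, fell by 0.31 in shDRG2 cells and by 0.38 in pLKO cells on the log2 scale, and the deubiquitinase gene Otud7b fell by 0.28 in shDRG2 cells. In shDRG2 cells the Traf3 call ended without IFN-γ replicate 2 (adjusted p = 0.0578) and the unstimulated replicate 1 (0.0504), that of Otud7b without replicate 2 with or without IFN-γ (0.130 and 0.112), and that of Ltbr without IFN-γ replicate 1 (0.0718). In pLKO cells the Ltbr call ended without IFN-γ replicate 1 (0.128) or either unstimulated replicate (0.0946 and 0.121).

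Of 11 other negative regulators 4 rose and 1 fell in shDRG2 cells, and 4 rose and 0 fell in pLKO cells. The share called was 45.5% and 36.4%, against 31.4% and 28.1% of all genes. The deubiquitinase gene Cyld rose 2.30-fold in shDRG2 cells (adjusted p = 1.53e-06) and 2.29-fold in pLKO cells (adjusted p = 1.76e-06), at 118 and 108 CPM in shDRG2 cells with IFN-γ against 50.6 and 48.0 CPM without it. Tnip2, the gene of an A20-binding protein, rose by 0.77 in shDRG2 cells and 0.61 in pLKO cells on the log2 scale, the A20 partner gene Tax1bp1 by 0.48 and 0.51, and N4bp1 by 0.60 and 0.39. Pdlim2, a ubiquitin ligase gene for nuclear RelA, fell by 0.70 in shDRG2 cells (adjusted p = 0.0313), a call that ended without any 1 of the shDRG2 libraries, at adjusted p-values from 0.0668 to 0.157. The N4bp1 call in pLKO cells ended without IFN-γ replicate 1 (0.0525) and the unstimulated replicate 1 (0.0716). Of the other IκB genes 2 of 3 tested rose in each line, Nfkbib and Bcl3. Nfkbib, the gene of IκBβ, rose by 0.28 in shDRG2 cells (adjusted p = 0.0124) and by 0.21 in pLKO cells (adjusted p = 0.0485). The pLKO call of Nfkbib ended in 14 of 15 alternatives, at up to 0.168 without the unstimulated pLKO replicate 1, and the shDRG2 call ended without replicate 2 with IFN-γ (0.0795) or without it (0.0526). Bcl3, a nuclear IκB protein gene, was named after its values were seen. It had 20 and 30 counts in shDRG2 cells with IFN-γ against 3 and 3 without it. In pLKO cells it had 29 and 26 counts with IFN-γ against 8 and 4 without it. Its counts without IFN-γ lay under the minimum of 10 used by the filter, so it was tested only through the libraries with IFN-γ. Its calls are therefore not read as support for a response.

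Among 28 other genes commonly listed as NF-κB targets, 18 did not pass the filter on low counts, and 11 of those had 0 counts in all 8 libraries, among them Il6, Il1b, Vcam1 and Ptgs2. A count of 0 allows up to 3 counts, or 0.0821 to 0.116 CPM in a library. Of the 10 tested, 6 rose in shDRG2 cells and 5 in pLKO cells, and 0 fell. That was 60% and 50% called, against 31.4% and 28.1% of all genes. Cxcl10, a chemokine gene that is also a standard interferon target, rose by 3.52 in shDRG2 cells and by 4.22 in pLKO cells on the log2 scale. The macrophage growth factor gene Csf1 rose 4.56-fold in shDRG2 cells and 4.50-fold in pLKO cells, the stress gene Gadd45b 5.89-fold and 3.90-fold, and the chemokine gene Ccl5 2.61-fold and 2.35-fold. Of the 6 tested IAP relatives and antagonists 1 rose and 1 fell in each line, a share of 33.3% that lay near that of all genes. Naip2, an inflammasome sensor gene of the IAP family, rose 2.69-fold in shDRG2 cells and 2.23-fold in pLKO cells, and Birc5, the gene of the mitotic protein survivin, fell by 0.74 and 0.52 on the log2 scale. The Birc5 call in pLKO cells ended without IFN-γ replicate 2 (adjusted p = 0.0623) and the unstimulated replicate 1 (0.0683).

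**Figure D5:**
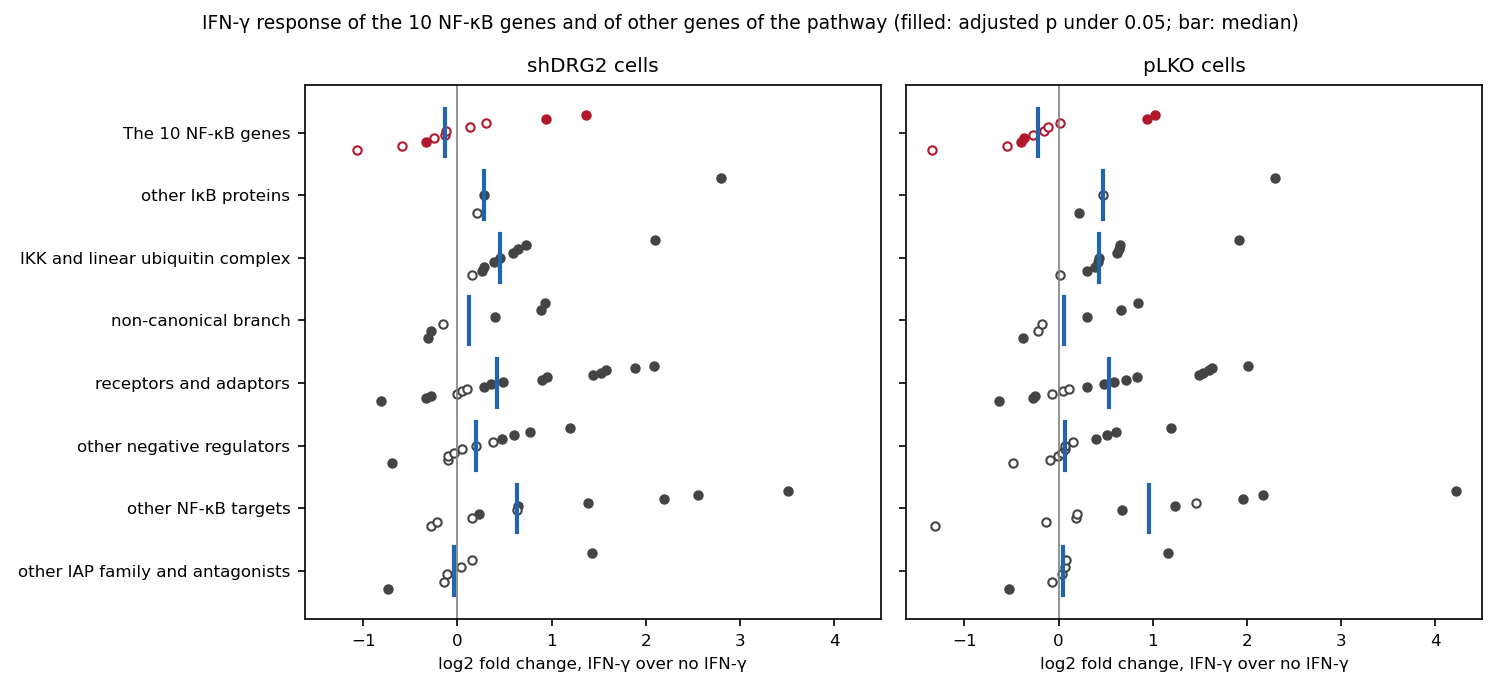
Log2 fold change with IFN-γ over no IFN-γ in shDRG2 cells (left) and pLKO cells (right) for the tested genes of each list, 1 point a gene, filled where the adjusted p was under 0.05, with the list median as a blue bar. The 10 NF-κB genes are in red, with medians of -0.13 in shDRG2 cells and -0.21 in pLKO cells, and the IκB kinase and linear ubiquitin genes have medians of 0.45 and 0.43.

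Between the lines, 1 of these other pathway genes was called within a treatment. Over all genes tested, 1.67% were called with IFN-γ and 1.2% without it. Cxcl10 was higher in shDRG2 cells without IFN-γ, at 82.0 and 87.6 CPM against 42.0 and 38.7 CPM in pLKO cells (log2 fold change 1.07, SE 0.0902, adjusted p = 0.000565). Averaged over treatments, Cxcl10 was also higher in shDRG2 cells (0.72, SE 0.0620, adjusted p = 0.000197). In that average Commd1, whose product promotes the degradation of RelA, was higher in shDRG2 cells (0.26, SE 0.0502, adjusted p = 0.0138), and Rnf31 was lower (-0.28, SE 0.0686, adjusted p = 0.0432). The Commd1 call ended without pLKO IFN-γ replicate 1 (0.0502), pLKO replicate 1 (0.0589) or 2 (0.0538), and shDRG2 IFN-γ replicate 1 (0.0621) or 2 (0.0519). The Rnf31 call ended without any 1 of the 8 libraries, at adjusted p-values from 0.0537 to 0.151.

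Birc2, the called member with the largest IFN-γ change in pLKO cells among those averaging at least 5 CPM, was set against 10038 genes of at least that level. Likeness was the root mean square difference of log2 CPM, each gene centred on its mean over the 8 libraries. The nearest genes were Ddr2, a collagen receptor kinase (0.04998), the DNA polymerase gene Poli (0.0592), the tRNA methyltransferase-like Trmt1l (0.0718), the MHC class II transcription factor gene Rfx5 (0.0731) and the mitochondrial RNA-processing gene Pnpt1 (0.0734). Ddr2 was at 332 and 340 CPM in shDRG2 cells with IFN-γ against 173 and 187 CPM without it, and at 303 and 327 CPM in pLKO cells with IFN-γ against 149 and 186 CPM without it. All 5 rose with IFN-γ, with log2 fold changes from 0.84 to 1.03 in shDRG2 cells and from 0.81 to 0.91 in pLKO cells, as likeness to Birc2 requires.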

How the data were processed

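Bulk RNA of the mouse melanoma line B16F10 was sequenced in 8 libraries. The authors deposited estimated counts (expected counts) for each gene, with no scaling between libraries. STAR, Salmon 1.5.2 and the mm10 genome are named, with no role, per the submitters' processing notes. No source used here gives the gene-level summary, annotation release or strandedness. Of 45583 entries, 27 with names turned into dates were left out, holding 0.204% to 0.212% of a library's counts.

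Counts were rounded and fitted in R 4.3.3 with edgeR 4.0.16 (filterByExpr, TMM, factors 0.973 to 1.04, 1 coefficient per group, quasi-likelihood F test, two-sided). p-values were adjusted by Benjamini-Hochberg over 13500 genes and called under 0.05. The fit had 4 residual degrees of freedom and a common biological coefficient of variation of 8.49%. Fold changes are from that fit on the log2 scale, with its SE, and n = 2 libraries per group. Alternatives were other scalings, no filter, DESeq2 1.42.0, leaving out each library, only the groups compared, and the replicate number as a block. Same-numbered libraries deviated together from their group means (correlations across genes 0.107 to 0.274 over the 6 pairs of groups, and the third principal component separated the numbers), so the numbers were taken to pair the libraries, from the data and not the labels. The main fit carried no such block, and the calls, counts and shares given are from it unless stated. Blocked values are given beside it where they change a call of a member. The fit was also run on counts simulated without a replicate effect, and no result here rests on that run. Depth was 25422758 to 36654519 counts a library, and intervals from counts cover counting error only.

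Positions and exon lengths came from GENCODE M21 (GRCm38, the assembly of mm10), promoters from RefSeq. A further gene of the IFN-γ check list is not reported here. The members and lists were chosen with earlier results of these data known. The text names all 10 members, other pathway genes called between the lines, and up to 4 called genes per list and direction with a mean of at least 1 CPM for IFN-γ.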

Additional observations from a re-analysis of the deposited data

How the results depend on the processing

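No member changed direction in a comparison where it was called, under any alternative. None of the 10 genes was called between the lines, or for the difference between IFN-γ responses, under any alternative. Of the values recomputed for members, 926 kept their direction and side of the threshold, 27 lost a call, 5 gained one, and 60 uncalled values changed sign. Apart from the gains for Relb, Tnfaip3 and Rela given above, the replicate block changed no call of a member.

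The number of members called for IFN-γ in pLKO cells was 4, with a range of 1 to 5 when 1 library was left out, and 2 in a fit of the pLKO libraries alone. In shDRG2 cells it was 3, with a range of 2 to 3, and in the average of both lines 6, with a range of 4 to 6.

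Counts over all genes, given as background, moved more. For shDRG2 against pLKO without IFN-γ, 162 genes were called, with 673 under the replicate block, 312 under DESeq2, 678 when unfiltered, and 27 to 167 with 1 library left out. With IFN-γ, 226 were called, with 675 under the replicate block, 653 when unfiltered, 124 with only the groups compared, and 44 to 202 with 1 library left out. Averaged over treatments, 798 were called, with 1720 under the replicate block, 1482 when unfiltered, and 381 to 633 with 1 library left out. For the difference between responses, 1 was called, with 2 under the replicate block, 9 under DESeq2, 58 when unfiltered, and 1 to 2 with 1 library left out. For IFN-γ, 3796 were called in pLKO cells (2482 to 3749 with 1 library left out) and 4233 in shDRG2 cells (2720 to 4297), and 5954 averaged over lines (4961 to 5599). Leaving out a library leaves 1 sample in its group, which is assumed to vary like the others. With the block, 675 genes called between the lines with IFN-γ included all 226. Depth limits the members with the fewest counts most, Tnfaip3, Birc3 and Relb. The causes of these shifts were not tested.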

Other observations

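Ccl2, the gene of a monocyte-attracting chemokine and a standard NF-κB target, did not pass the filter on low counts and was named after its values were seen. It had 2 and 3 counts in shDRG2 cells with IFN-γ against 11 and 9 counts in pLKO cells with IFN-γ, and 0 counts in the 4 libraries without IFN-γ. Icam1, an adhesion molecule gene also named after its values were seen, passed the filter with 4 and 5 counts in shDRG2 cells with IFN-γ against 9 and 17 counts in pLKO cells with IFN-γ, and had 4 and 1 counts in shDRG2 cells against 3 and 7 counts in pLKO cells without it. Cxcl10 was at 1017 and 921 CPM in shDRG2 cells against 778 and 723 CPM in pLKO cells with IFN-γ. At so few Ccl2 and Icam1 reads these are counts only, and no difference is read from them.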
